A study of Homo sapiens with 48 samples.

Results

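Major histocompatibility complex (MHC) class II genes and their transcriptional coactivator CIITA were followed in human cell lines from bladder cancers, with and without CPI-0209, an inhibitor of the histone methyltransferase EZH2. The members, 10 of the 35535 genes in the deposited count table, were chosen by name: CIITA, CD74, HLA-DRA, HLA-DRB1, HLA-DPA1, HLA-DPB1, HLA-DQA1, HLA-DQB1, HLA-DMA and HLA-DMB. Total RNA was sequenced from 8 established lines (639V, HT1197, HT1376, KU1919, SW780, T24, VMCUB and TCCSUP), each exposed for 4 days to 250 nM CPI-0209 or to the vehicle DMSO. The labels give each line no genetic modification and its own growth medium, so a difference between lines is also a difference between media. There were 3 libraries per line and treatment, which makes 16 groups and 48 libraries. A line is a single tumour-derived culture without immune cells around it, and the labels do not say that its 3 libraries of a treatment were cultured apart, so the spread behind each p-value may be technical only.

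MHC class II molecules are pairs of an alpha and a beta chain that present peptides, taken up and cut in endosomes, to CD4 T cells. B cells, macrophages and dendritic cells make them constitutively, and many epithelial cells make them after interferon-gamma, which acts through JAK kinases and IRF1 on CIITA. CIITA does not bind DNA itself: it is recruited by RFX, NF-Y and CREB proteins that sit on the X and Y boxes of class II promoters. EZH2 is the enzyme of the Polycomb complex PRC2 that places the repressive H3K27me3 mark on histones, and the CIITA gene has been described as one of its targets.

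Library totals ranged from 26481418 to 50916911 counts with a median of 41665645. Levels are counts per 1000000 (CPM) with TMM scaling over all 48 libraries, and changes are log2 fold changes, CPI-0209 over DMSO, from edgeR's quasi-likelihood test in each line with standard error (SE) and Benjamini-Hochberg adjusted p over all genes tested. A gene is said to rise or fall where the adjusted p was under 0.05. Replicates correlated between 0.980 and 0.996 (Pearson, log2 CPM across genes), and every replicate pair differed by more than sampling noise. Members too low for edgeR's count filter in a line were not tested there and are given as counts. A member low in DMSO could pass that filter through its CPI-0209 libraries, so counts among tested members lean towards those that rose. Reads of HLA-DRB1 can be shared with near-identical DRB genes, and HLA-DPA1 and HLA-DPB1 overlap on opposite strands on chromosome 6, so these values are uncertain where the counting could split reads.

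The response ranged from all members to none. In HT1376 all 10 members rose, where 23.7% of all genes tested rose. TCCSUP followed with 9 members higher, against 25.7% of all genes, and HLA-DRB1 not tested. In 639V 5 of 9 tested members rose (22.1% of all genes), and in SW780 4 of 9 rose (30.8%) and 1 fell (30.3%). Fewer moved in the remaining lines: in KU1919 2 of 8 rose (9.30%) and 1 fell (2.40%), in T24 2 of 8 rose (9.37%), and in VMCUB 2 of 6 rose (16.4%). HT1197 had 4 tested members, of which 0 passed edgeR's threshold, 0 had an unadjusted p under 0.05 and 0 passed in DESeq2 (19.6% of all genes changed). Some of these shares rest on 1 library: the genes called in KU1919 went from 1899 to 5422 without CPI-0209 replicate 1, which stood apart from the other two (Pearson 0.982 and 0.980), and to 971, 998 and 1087 without DMSO replicates 1, 2 and 3. In VMCUB they went from 4238 to 7678 without DMSO replicate 3, to 2010 without DMSO replicate 1 and to 1811, 1814 and 1850 without CPI-0209 replicates 1, 2 and 3. In T24 they went from 1596 to 1007 and 936 without CPI-0209 replicates 1 and 2. As a median over the 10 members, the difference in log2(CPM + 0.1) was 5.05 in HT1376, 1.86 in TCCSUP and 1.57 in 639V. It was 0.52 in SW780, 0.32 in T24 and in KU1919, 0.26 in VMCUB and 0.08 in HT1197, while the median over all genes tested lay between -0.06 and 0.07 in the 8 lines.

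Counted by separation of the libraries, all 3 treated libraries lay above all 3 DMSO libraries for 10 members in HT1376 (24.7% of all genes tested there), 10 in TCCSUP (28.6%) and 6 in 639V (29.3%). The numbers were 6 in SW780 (37.6%), 5 in T24 (17.1%), 3 in KU1919 (20.3%), 3 in VMCUB (27.4%) and 0 in HT1197 (17.4%). The reverse held for CD74 alone, in KU1919 (17.2% of all genes) and in SW780 (27.4%). These counts cover all 10 members, tested or not, whereas the shares are over tested genes. Untested members among those higher were HLA-DRB1 in TCCSUP and HLA-DRA in 639V, SW780 and T24. Tested members that were higher in this way without passing the test were CIITA in SW780 and VMCUB, HLA-DPA1 in KU1919, and HLA-DMA and HLA-DMB in T24.

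**Figure D1:**
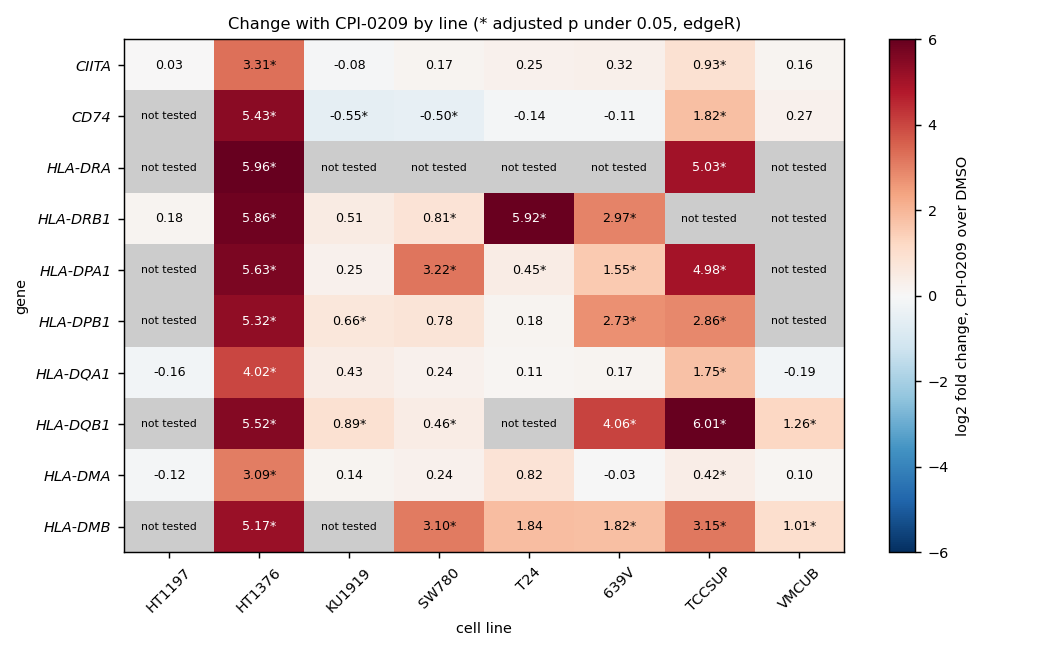
Log2 fold change of each of the 10 genes (rows) with CPI-0209 in each of the 8 lines (columns), with an asterisk where the adjusted p was under 0.05 and grey where the gene was not tested. The HT1376 column is high throughout, from 3.09 for HLA-DMA to 5.96 for HLA-DRA, and HT1197 has no asterisk.

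CIITA, the switch of the class II programme (GRCh38 chr16:10866222-10943021, plus strand), was present in all 48 libraries. Under DMSO the line means ran from 1.61 CPM in HT1197 to 3.83 CPM in HT1376, and the 5 lines TCCSUP, 639V, VMCUB, T24 and KU1919 each overlapped the next in order. In HT1376 it stood at 3.95, 3.78 and 3.76 CPM in the DMSO libraries and at 43.7, 31.5 and 34.0 CPM in the CPI-0209 libraries. The groups were far apart, a 9.91-fold rise (log2 fold change 3.31 ± 0.14 SE, edgeR adjusted p = 1.57e-07). In TCCSUP it stood at 2.59, 3.44 and 2.93 CPM in DMSO and at 5.68, 6.61 and 4.72 CPM in CPI-0209. These groups did not overlap either, and the rise was 1.90-fold (0.93 ± 0.15, edgeR adjusted p = 0.000205).

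In the other 6 lines CIITA did not pass the test. In SW780 its libraries lay at 3.56 to 3.67 CPM in DMSO and 4.13 to 4.33 CPM in CPI-0209 (0.17 ± 0.10, edgeR adjusted p = 0.145), and in VMCUB at 2.50 to 2.57 and 2.64 to 2.96 CPM (0.16 ± 0.11, adjusted p = 0.277). Both lines thus had treated libraries above all DMSO libraries by a small margin. In 639V the libraries overlapped, with 2.28 to 3.07 CPM in DMSO and 2.94 to 3.54 CPM in CPI-0209 (0.32 ± 0.14, adjusted p = 0.0823). That value passed without DMSO replicate 2 (0.46, adjusted p = 0.0290) or without CPI-0209 replicate 1 (0.40, adjusted p = 0.0475). The log2 changes were 0.25 ± 0.16 in T24, 0.03 ± 0.22 in HT1197 and -0.08 ± 0.13 in KU1919, with overlapping libraries in each. DEXI, a gene that lies wholly within the CIITA locus on the opposite strand, was more abundant than CIITA in DMSO in every line, at 24.2 to 62.6 CPM. In HT1376 its level was 62.6 ± 5.39 CPM (SD, n = 3) in DMSO and 61.9 ± 3.49 CPM in CPI-0209, and it fell in SW780 by 0.46 and in TCCSUP by 0.25 on the log2 scale. The counts are per gene, so the alternative CIITA promoters used by dendritic cells, B cells and interferon-gamma cannot be told apart.

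**Figure D2:**
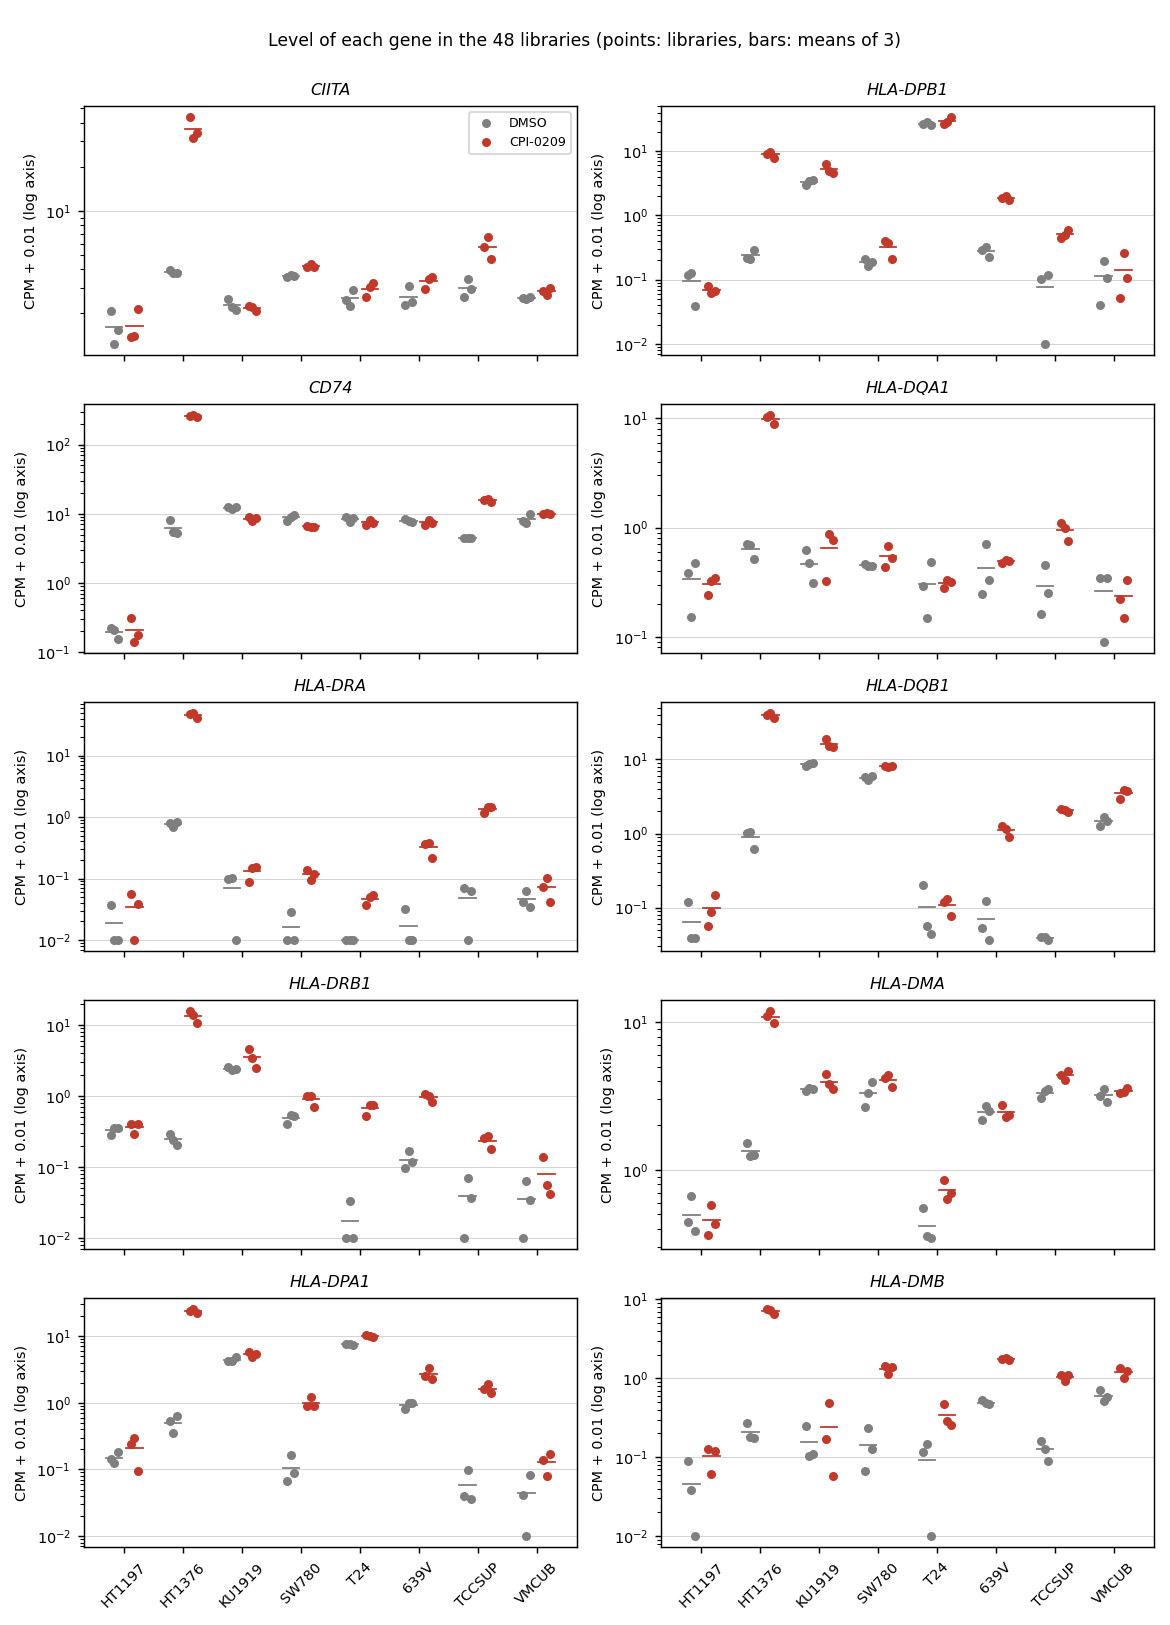
CPM plus 0.01 on a log axis for each gene in each line, with a grey point for each DMSO library, a red point for each CPI-0209 library and a bar at the mean of 3. CIITA is above 1 CPM in all libraries, whereas most HLA genes in DMSO lie below 1 CPM outside a few lines.

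CD74, the invariant chain that occupies the peptide groove of new class II molecules (chr5:150401637-150412929, minus strand), had the highest level per kilobase of the 10 genes in DMSO in 6 of the 8 lines, all but HT1197 and T24. In HT1376 it stood at 8.03, 5.36 and 5.24 CPM in DMSO and at 260, 268 and 248 CPM in CPI-0209. That is a 43.2-fold rise with groups far apart (5.43 ± 0.14, edgeR adjusted p = 2.50e-08). In TCCSUP it stood at 4.51, 4.44 and 4.50 CPM in DMSO and at 15.8, 16.6 and 14.8 CPM in CPI-0209 (1.82 ± 0.08, edgeR adjusted p = 1.68e-09). CD74 was also the member that fell. In KU1919 it went from 12.7, 11.9 and 12.3 CPM to 8.94, 7.80 and 8.67 CPM (-0.55 ± 0.09, adjusted p = 0.00681), and in SW780 from 7.97, 9.08 and 9.57 CPM to 6.66, 6.49 and 6.50 CPM (-0.50 ± 0.08, adjusted p = 3.59e-05). The treated libraries were below all DMSO libraries in both, although the KU1919 call was lost without DMSO replicate 1 (adjusted p = 0.0508). In T24, 639V and VMCUB the libraries overlapped, with log2 changes of -0.14 ± 0.12, -0.11 ± 0.08 and 0.27 ± 0.12, of which the VMCUB value passed without DMSO replicate 3 (0.35, adjusted p = 0.0122). HT1197 was the line without CD74 at depth, with 20 counts over its DMSO libraries and 24 over its CPI-0209 libraries.

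HLA-DRA, the nearly invariant alpha chain of the DR molecule (chr6:32439842-32445046, plus strand), was close to absent in DMSO outside HT1376. In HT1376 it stood at 0.780, 0.688 and 0.808 CPM in DMSO and at 47.5, 48.8 and 40.5 CPM in CPI-0209, a 62.2-fold rise (5.96 ± 0.12, edgeR adjusted p = 4.58e-09). In TCCSUP it went from 2, 0 and 2 counts to 53, 38 and 61 counts, that is from 0.0609, 0 and 0.0532 CPM to 1.17, 1.44 and 1.46 CPM (5.03 ± 0.44, edgeR adjusted p = 9.72e-07). The groups did not overlap in either line. In the other lines it fell under the count filter. In 639V 1 count over the 3 DMSO libraries stood against 50 over the 3 CPI-0209 libraries, a depth-scaled ratio of 40.1 with a 95% counting interval of 6.88 to 1617. In SW780 1 count stood against 17 (ratio 14.6, 2.28 to 609), and in T24 0 counts stood against 5, at least 1.51-fold higher with the DMSO group's sum set at its floor of 3 counts. With the count filter removed, edgeR called HLA-DRA higher in 639V and in SW780. These intervals cover counting error only.

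HLA-DRB1, the polymorphic beta chain that pairs with HLA-DRA (chr6:32578769-32589848, minus strand), rose in 4 lines. In HT1376 it went from 0.286, 0.229 and 0.195 CPM to 15.6, 13.9 and 10.8 CPM (5.86 ± 0.22, edgeR adjusted p = 6.61e-08). In 639V it went from 0.0861, 0.157 and 0.108 CPM to 1.06, 0.991 and 0.813 CPM (2.97 ± 0.30, edgeR adjusted p = 2.55e-06). In T24 the 3 DMSO libraries held 0, 1 and 0 counts and the CPI-0209 libraries 19, 37 and 34, a ratio of 81.7 with a counting interval of 14.3 to 3263 (5.92 ± 0.62, edgeR adjusted p = 0.00126). HLA-DRB1 thus went from near 0 to 0.516, 0.745 and 0.750 CPM in T24, where HLA-DRA, its partner, held 5 counts in all. In SW780 it stood at 0.398, 0.532 and 0.515 CPM in DMSO and at 0.979, 0.993 and 0.698 CPM in CPI-0209 (0.81 ± 0.24, edgeR adjusted p = 0.00629), a call that DESeq2 did not make (adjusted p = 0.0611). TCCSUP, not tested, had 3 counts against 25 (ratio 7.66, 2.34 to 39.7). The highest DMSO level was in KU1919, at 2.33 to 2.54 CPM, and its CPI-0209 libraries at 2.45 to 4.63 CPM overlapped them (0.50 ± 0.22, adjusted p = 0.211). HT1197 had 0.269 to 0.346 CPM in DMSO and 0.286 to 0.397 CPM in CPI-0209.

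HLA-DPA1 and HLA-DPB1 encode the alpha and beta chains of the DP molecule and lie head to head (chr6:33064569-33080775, minus strand, and chr6:33075926-33087201, plus strand). T24 and KU1919 expressed both without treatment. In T24, HLA-DPB1 stood at 26.3, 28.2 and 25.5 CPM in DMSO and at 26.5, 28.9 and 34.0 CPM in CPI-0209, overlapping (0.18 ± 0.10, edgeR adjusted p = 0.392). HLA-DPA1 in T24 stood at 7.50, 7.61 and 7.24 CPM in DMSO and at 10.4, 9.90 and 9.81 CPM in CPI-0209 (0.45 ± 0.09, edgeR adjusted p = 0.0230). Its libraries did not overlap, yet the call was lost without any one of 5 libraries (DMSO replicates 1, 2 and 3, CPI-0209 replicates 1 and 2), with adjusted p between 0.0592 and 0.114. In KU1919, HLA-DPB1 rose from 2.95, 3.37 and 3.59 CPM to 6.40, 4.83 and 4.61 CPM (0.66 ± 0.15, edgeR adjusted p = 0.0329), a call lost without DMSO replicate 1, 2 or 3 or CPI-0209 replicate 2 (0.0733 to 0.150). HLA-DPA1 in KU1919 lay at 4.15 to 4.86 CPM in DMSO and 4.87 to 5.66 CPM in CPI-0209 (0.25 ± 0.11, adjusted p = 0.221).

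Where both DP genes were called, in HT1376, TCCSUP and 639V, both rose. In HT1376, HLA-DPA1 went from 0.520, 0.344 and 0.613 CPM to 23.8, 25.1 and 22.3 CPM (5.63 ± 0.14, edgeR adjusted p = 7.71e-09), and HLA-DPB1 from 0.201 to 0.279 CPM up to 7.80 to 9.74 CPM (5.32 ± 0.17, adjusted p = 3.57e-08). In TCCSUP, HLA-DPA1 went from 1, 3 and 1 counts to 72, 50 and 57 (4.98 ± 0.39, edgeR adjusted p = 3.04e-07) and HLA-DPB1 from 3, 0 and 4 counts to 20, 13 and 24 (2.86 ± 0.53, adjusted p = 0.000613). In 639V, HLA-DPA1 rose 2.94-fold (1.55 ± 0.18, edgeR adjusted p = 9.15e-06) and HLA-DPB1 6.65-fold (2.73 ± 0.21, adjusted p = 1.51e-07). No library of one treatment overlapped the other in these 3 lines. SW780 split the pair: HLA-DPA1 went from 0.0569, 0.152 and 0.0793 CPM to 0.893, 1.20 and 0.878 CPM (3.22 ± 0.33, edgeR adjusted p = 1.13e-07). HLA-DPB1 in SW780 stood at 0.199, 0.152 and 0.178 CPM in DMSO and at 0.383, 0.360 and 0.197 CPM in CPI-0209, overlapping (0.78 ± 0.38, adjusted p = 0.0838), and passed without CPI-0209 replicate 3 (1.03, adjusted p = 0.0323). Neither gene was tested in VMCUB, with 4 and 14 counts for HLA-DPA1 and 12 and 16 for HLA-DPB1 in DMSO and CPI-0209, or in HT1197, with 15 and 24 counts for HLA-DPA1 and 9 and 7 for HLA-DPB1. Low levels in DMSO were thus found in lines where the DP genes rose and in lines where they were not tested.

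HLA-DQB1, the beta chain of the DQ molecule (chr6:32659467-32668383, minus strand), passed the count filter in 6 lines and rose in each. In TCCSUP and 639V it passed that filter only through its CPI-0209 libraries, so which lines were tested depended in part on the rise. In TCCSUP each DMSO library held 1 count and the CPI-0209 libraries held 96, 55 and 81, a ratio of 71.1 with a counting interval of 24 to 347 (6.01 ± 0.33, edgeR adjusted p = 1.09e-08). In HT1376 it went from 1.01, 1.03 and 0.613 CPM to 40.2, 42.1 and 35.9 CPM (5.52 ± 0.14, edgeR adjusted p = 8.11e-09). In 639V it went from 0.0430, 0.112 and 0.0270 CPM to 1.27, 1.14 and 0.894 CPM (4.06 ± 0.37, edgeR adjusted p = 8.98e-07). The log2 changes were smaller in VMCUB, KU1919 and SW780, the lines with the highest DMSO levels, which enter the ratio as its base. In CPM the order differed: the mean went from 8.64 to 16.2 CPM in KU1919 and from 0.029 to 2.05 CPM in TCCSUP. In VMCUB it went from 1.26, 1.68 and 1.48 CPM to 2.92, 3.84 and 3.77 CPM (1.26 ± 0.17, edgeR adjusted p = 0.00249), in KU1919 from 8.21, 8.76 and 8.95 CPM to 18.9, 15.2 and 14.5 CPM (0.89 ± 0.11, adjusted p = 0.00279), and in SW780 from 5.81, 5.30 and 5.91 CPM to 8.25, 7.79 and 8.10 CPM (0.46 ± 0.08, adjusted p = 0.000114). The treatments did not overlap in any of the 6 lines. HLA-DQB1 was not tested in T24, with 12 and 13 counts in DMSO and CPI-0209, or in HT1197, with 6 and 10. HLA-DQA1, the alpha partner (chr6:32628179-32647062, plus strand), rose only in HT1376, from 0.501 to 0.702 CPM up to 8.79 to 10.7 CPM (4.02 ± 0.15, edgeR adjusted p = 6.61e-08), and in TCCSUP, from 0.152, 0.444 and 0.239 CPM to 1.08, 0.987 and 0.743 CPM (1.75 ± 0.34, adjusted p = 0.000996). In the other 6 lines its libraries overlapped between treatments.

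Promoter sequence is shown for 3 members: HLA-DQB1, which rose in the most lines, HLA-DMB, described next, and HLA-DRB1, whose X-like and Y-like elements lie in the usual order. RefSeq promoters on GRCh38.p14, 250 bases before to 50 after the gene start, were in the table used for 8 of the 10 members (CIITA and HLA-DRA were not). Both strands were searched for GNAAC followed by 3 bases of any kind and TG, a form of the X box core, and for ATTGG, the NF-Y (Y box) core, and matches to the 2 motifs can overlap by a few bases, although none did in the promoters of the members. The first stood in 10.8% of 35116 promoters and in those of CD74, HLA-DRB1 and HLA-DMB. ATTGG stood in 34.6%, and in those of all 8 members with an entry but HLA-DPA1. The motifs in that order with 15 to 30 bases between them stood in 0.168% of promoters and, among the members, in HLA-DRB1. Below, the 250 bases before the start are printed 5′ to 3′ on the gene's strand, with motif matches on either strand in capitals (CCAAT is ATTGG on the other strand).
HLA-DRB1 (chr6:32589849-32590098, minus strand): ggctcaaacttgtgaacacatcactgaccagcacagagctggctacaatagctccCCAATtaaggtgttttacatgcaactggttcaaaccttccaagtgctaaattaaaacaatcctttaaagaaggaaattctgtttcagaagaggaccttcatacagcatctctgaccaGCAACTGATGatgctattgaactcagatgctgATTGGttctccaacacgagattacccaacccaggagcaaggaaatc
HLA-DQB1 (chr6:32666658-32666907, minus strand): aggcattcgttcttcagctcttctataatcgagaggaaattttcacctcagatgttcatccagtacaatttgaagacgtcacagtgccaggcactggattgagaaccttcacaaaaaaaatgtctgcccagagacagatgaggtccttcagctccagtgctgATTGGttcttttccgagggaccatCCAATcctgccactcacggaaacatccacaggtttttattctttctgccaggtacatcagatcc
HLA-DMB (chr6:32941029-32941278, minus strand): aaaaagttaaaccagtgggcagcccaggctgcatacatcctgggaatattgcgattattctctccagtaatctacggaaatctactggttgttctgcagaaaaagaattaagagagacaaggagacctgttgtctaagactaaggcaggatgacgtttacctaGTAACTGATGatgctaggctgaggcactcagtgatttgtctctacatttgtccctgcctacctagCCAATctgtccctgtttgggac
In HLA-DRB1 the capitals GCAACTGATG begin 78 bases before the start and the downstream ATTGG 46 bases before it. In HLA-DMB the match is GTAACTGATG, 87 bases before the start. HLA-DQB1 has ATTGG 88 bases before the start and CCAAT 64 before it, and no match to the X box form. A match is a description of these letters, and their part in the changes was not tested.

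HLA-DMA and HLA-DMB form the DM molecule, which removes the CD74 remnant from class II grooves so that peptide can bind (chr6:32948613-32969094 and chr6:32934629-32941070, both minus strand). They did not move alike. HLA-DMB rose in 5 lines: in HT1376 from 0.260, 0.172 and 0.167 CPM to 7.47, 7.24 and 6.48 CPM (5.17 ± 0.18, edgeR adjusted p = 4.63e-08), and in TCCSUP from 0.152, 0.118 and 0.0798 CPM to 1.10, 0.911 and 1.08 CPM (3.15 ± 0.32, adjusted p = 4.37e-06). In SW780 it went from 0.0569, 0.228 and 0.119 CPM to 1.40, 1.11 and 1.36 CPM (3.10 ± 0.31, edgeR adjusted p = 6.89e-08), and in 639V from 0.516, 0.471 and 0.459 CPM to 1.76, 1.80 and 1.69 CPM (1.82 ± 0.18, adjusted p = 2.25e-06). In VMCUB it went from 0.707, 0.505 and 0.571 CPM to 1.34, 0.989 and 1.22 CPM (1.01 ± 0.22, edgeR adjusted p = 0.0163). The groups were apart in all 5 lines, and the VMCUB call was lost without CPI-0209 replicate 1 (0.0774) or 3 (0.0651). T24 had all treated libraries above all DMSO libraries, 0.243 to 0.462 CPM against 0 to 0.138 CPM (1.84 ± 0.65, adjusted p = 0.149).

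HLA-DMA was present in DMSO at 1.23 to 3.94 CPM in HT1376, KU1919, SW780, 639V, TCCSUP and VMCUB. In HT1376 it went from 1.51, 1.23 and 1.25 CPM to 11.1, 11.9 and 9.84 CPM (3.09 ± 0.12, edgeR adjusted p = 8.65e-08). In TCCSUP it went from 3.04, 3.41 and 3.51 CPM to 4.40, 4.06 and 4.68 CPM (0.42 ± 0.12, edgeR adjusted p = 0.0103), a call not made by DESeq2 (0.0606). HLA-DMA in 639V, where HLA-DMB rose 3.53-fold, showed 2.15 to 2.71 CPM in DMSO and 2.27 to 2.72 CPM in CPI-0209 (-0.025 ± 0.13), and 0.027 when scaled by library totals. In SW780, where HLA-DMB rose 8.55-fold, it showed 2.65 to 3.94 and 3.65 to 4.38 CPM (0.24 ± 0.13, adjusted p = 0.120), and passed without DMSO replicate 3 (0.38, adjusted p = 0.0218). Scaling SW780 by library totals moved the median of all genes by 0.20 on the log2 scale and brought the members called from 5 to 8, with CIITA at 0.37, HLA-DPB1 at 0.98 and HLA-DMA at 0.44, while CD74 still fell.

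Per kilobase of merged exon, CD74 was the most abundant member in treated HT1376 (81.2 ± 3.14 CPM per kilobase, SD, n = 3), followed by HLA-DRA (35.6 ± 3.49), and the libraries of each rank did not overlap. In DMSO-treated T24 the first was HLA-DPB1 (9.55 ± 0.51 CPM per kilobase), ahead of CD74 (2.64 ± 0.24). These ranks were the same with the median length of a gene's coding transcripts, a length chosen after seeing the data. Ranks further down changed with the length used.

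Set line by line, 8 of the 9 targets moved more than CIITA in HT1376 and in TCCSUP, where CIITA rose, and HLA-DMA moved less in both (2.95 against 3.20 and 0.39 against 0.90 on the log2(CPM + 0.1) scale). On the same scale HT1376 had the largest difference of CIITA and of each of the 9 other members, and TCCSUP the second largest of CIITA. Several targets rose in lines whose CIITA did not pass the test: HLA-DQB1 in KU1919, SW780, 639V and VMCUB, HLA-DMB in SW780, 639V and VMCUB, and HLA-DRB1 in SW780, 639V and T24. Across the 8 lines the correlation between the CIITA difference and a target's difference ranged from 0.84 for HLA-DQB1 to 0.98 for CD74 (Pearson, with Spearman 0.57 for HLA-DMA to 0.95 for HLA-DPA1). Without HT1376 and TCCSUP, over 6 lines, it ranged from 0.03 for HLA-DQA1 to 0.76 for HLA-DMB. These are descriptions: the points share libraries and scaling, and the members were selected as a known pathway.

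**Figure D3:**
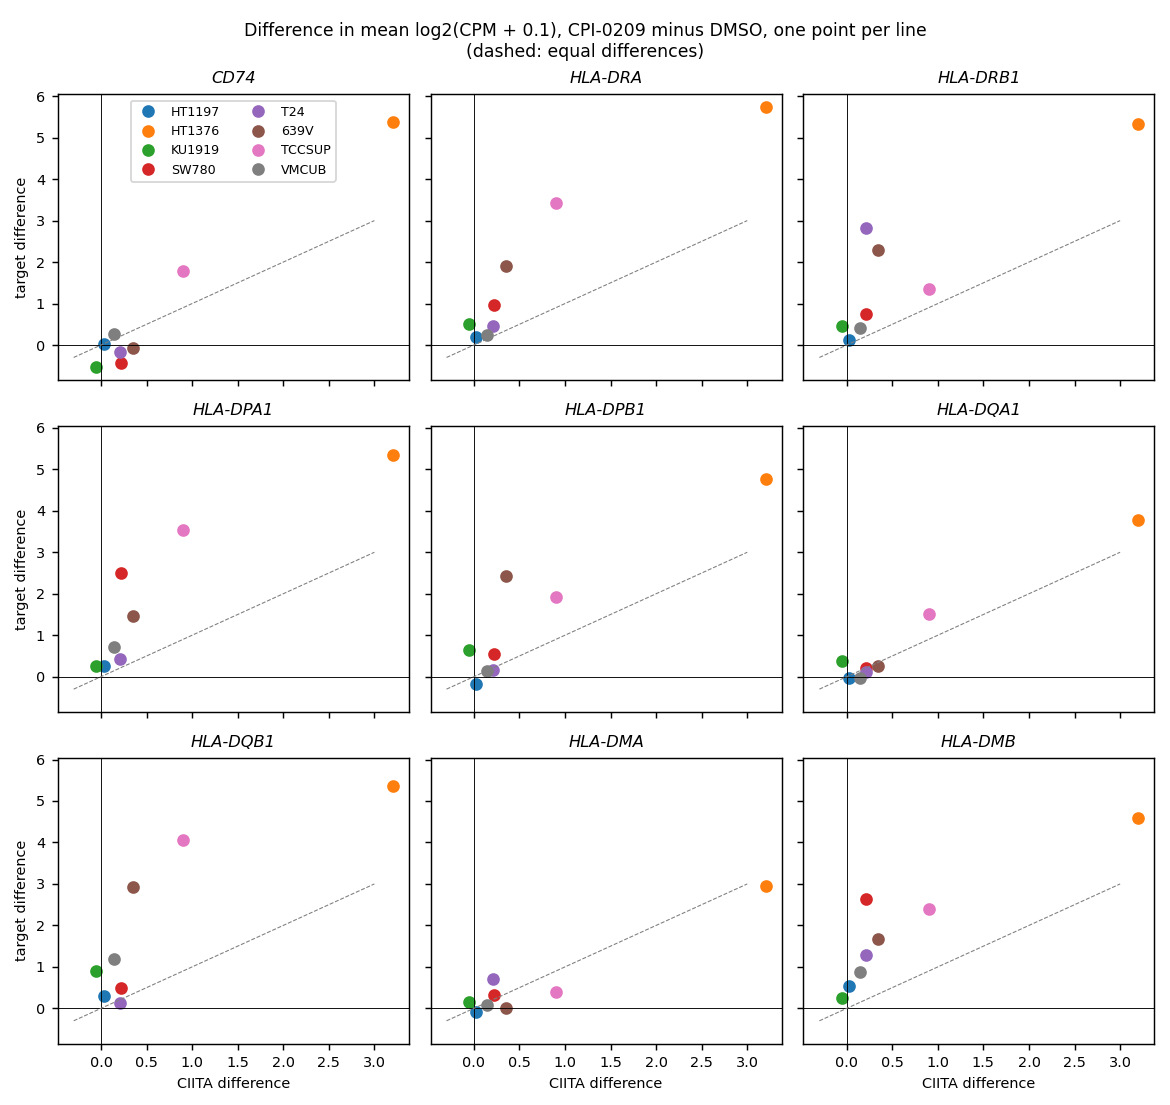
Difference in mean log2(CPM + 0.1), CPI-0209 minus DMSO, of CIITA (horizontal) and of each of the 9 other members (vertical), with 1 point per line and a dashed line of equal differences. HT1376 lies at the far right of each panel, TCCSUP is next, and the other 6 lines sit near a CIITA difference of 0 with target differences spread upward for HLA-DRB1, HLA-DPA1, HLA-DPB1, HLA-DQB1 and HLA-DMB.

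A response common to the lines was tested on counts summed over replicates, with the 8 lines as the replicates. HLA-DMB was the only one of 9 tested members to pass (2.26 ± 0.51, edgeR adjusted p = 0.0283), where 7.31% of all genes rose. HLA-DRB1 (2.24 ± 0.74, adjusted p = 0.0762), HLA-DPA1 (2.10 ± 0.71, 0.0784) and HLA-DQB1 (2.18 ± 0.78, 0.0907) had changes of like size with wide errors. The HLA-DMB call was lost without SW780 (0.0588), T24 (0.0604), 639V (0.0544) or TCCSUP (0.0667), and DESeq2 called 6 members.

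Whether the lines differed was tested directly with an edgeR F test of the 7 line by treatment terms. All 10 members differed between lines, where 58.7% of all genes did, with adjusted p from 6.31e-28 for CD74 to 2.07e-06 for HLA-DRA. Without HT1376, HLA-DQA1 (adjusted p = 0.102) and HLA-DMA (0.0957) no longer passed. Each line was then set against the mean response of the other 7, for the 9 members other than HLA-DRA, which had 0 counts in 1 group. In HT1376 9 of 9 were higher (11.1% of all genes), from 2.85 ± 0.17 for HLA-DMA to 5.28 ± 0.16 for CD74. In TCCSUP 4 were higher (9.10%), among them HLA-DQB1 (4.17 ± 0.50, edgeR adjusted p = 2.02e-08) and HLA-DPA1 (3.06 ± 0.45, adjusted p = 1.38e-06), while CIITA was not called (0.31 ± 0.16, adjusted p = 0.197). KU1919 had 8 lower (13.7%), VMCUB 5 lower (14.4%) and HT1197 4 lower (7.11%). T24 had HLA-DRB1 higher (3.84 ± 0.75, edgeR adjusted p = 0.000236; 4.98% of all genes higher) and 4 lower (6.10%). SW780 had HLA-DPA1 higher (13.8%) and 4 lower (16.8%), and 639V had HLA-DPB1 and HLA-DQB1 higher (7.74%) and 3 lower (7.47%). The mean that each line was set against holds HT1376 in all but its own contrast, and the lines share each other's libraries, so these counts are not independent. Each HLA-DRB1 contrast draws on the T24 DMSO group, which held 1 count, in replicate 2. Without replicate 2 that group held 0 counts, so the HLA-DRB1 contrasts of that run cannot be read for any line. Leaving out replicate 1, 2 or 3 of every group left 8 or 9 of the 9 in HT1376, where HLA-DRB1 without replicate 2 made the difference, and 6 or 7 of the 8 in KU1919. The HT1197 count was 1 without replicate 1 of every group and 2 without replicate 3.

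Other class II chains, from a list of 5, moved beside the members. In HT1376 3 of 3 tested rose: HLA-DOA, a chain of the DO molecule that restrains DM (5.13 ± 0.16, edgeR adjusted p = 2.80e-08), HLA-DRB5 (6.48 ± 0.42, adjusted p = 2.41e-06) and HLA-DQB2 (3.98 ± 0.41, adjusted p = 4.72e-05). HLA-DOA also rose in 639V (1.37 ± 0.14), T24 (2.19 ± 0.41) and SW780 (0.93 ± 0.33), HLA-DRB5 in SW780 (1.21 ± 0.27), and HLA-DOB in TCCSUP (0.37 ± 0.11). The list's median difference in log2(CPM + 0.1) was 2.37 in HT1376 and 0.79 in 639V, and at most 0.50 in the other lines.

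Counts of the pathway lists are read against all genes tested: 16% fell in HT1376, 23.0% in TCCSUP, 17.1% in 639V, 11% in VMCUB and 0.930% in T24, in HT1197 11.8% rose and 7.80% fell, and the remaining shares are those given with the members. Of the 7 RFX, NF-Y and CREB genes listed, which encode the factors that recruit CIITA and were tested in each line, 1 rose and 1 fell in HT1376: RFX5 (0.36 ± 0.05, edgeR adjusted p = 0.000421) and NFYB (-0.42 ± 0.05, adjusted p = 0.000183). In TCCSUP 3 of 7 rose, where 25.7% of all genes did, and 1 fell. In SW780 4 rose, the largest change being that of RFXAP (0.53 ± 0.10), and 1 fell, NFYB, whose call was lost with library totals. None passed edgeR's test in HT1197, KU1919 or T24. The list's median difference was -0.02 in HT1376, 0.13 in TCCSUP and 0.24 in SW780, against -0.06, -0.02 and 0.07 over all genes. Of 10 class II processing genes (cathepsins, LGMN, IFI30 and others), 3 rose and 0 fell in HT1376, 1 rose and 4 fell in TCCSUP, and 3 rose and 7 fell in SW780. In 639V 5 rose (22.1% of all genes) and 1 fell (17.1%). In VMCUB 2 rose and 2 fell, in HT1197 2 rose and 0 fell, and in KU1919 and in T24 1 rose and 0 fell. The 3 that rose in HT1376 and in SW780 are near the share of all genes that did (23.7% and 30.8%). Among the 7 that fell in SW780 (30.3% of all genes) was CTSD, an endosomal protease (-1.30 ± 0.06). MARCHF8, a ubiquitin ligase of class II molecules, rose in TCCSUP (1.73 ± 0.09, edgeR adjusted p = 3.83e-09) and HT1376 (0.47 ± 0.07).

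IFNG, the gene of interferon-gamma, had 0 counts in all libraries but those of 2 groups: 4 counts over the CPI-0209 libraries of HT1376 and 1 over those of TCCSUP. Of the 14 interferon-gamma signalling genes, 5 of 12 tested rose and 0 fell in HT1376, among them IFNGR1, a receptor chain (0.50 ± 0.05, edgeR adjusted p = 3.39e-05), and IRF1, a transcription factor (0.44 ± 0.06, adjusted p = 0.000449). In TCCSUP 7 rose and 2 fell, with IRF9 up by 0.93 ± 0.08 and JAK2 down (-0.48 ± 0.09). Among the lines whose CIITA did not pass, 7 of 13 rose and 1 fell in SW780 (12 and 1 with library totals). The numbers were 4 and 2 in 639V, 3 and 1 in HT1197, 2 and 1 in KU1919 and in VMCUB, and 0 and 0 in T24. IRF1 rose in KU1919 (0.67 ± 0.08) and VMCUB (0.61 ± 0.06), where CIITA did not pass. Of 15 genes induced by interferon-gamma, 9 of 14 tested rose and 0 fell in HT1376, and 7 of 13 rose and 3 fell in TCCSUP. In T24 and in 639V 3 rose and 3 fell, in HT1197 1 rose and 3 fell, in SW780 4 rose and 2 fell, in VMCUB 3 rose and 2 fell, and in KU1919 0 rose and 1 fell. CXCL10, a chemokine for T cells, went from 0.993 ± 0.15 to 25.9 ± 2.31 CPM (SD, n = 3) in HT1376 and from 0.0198 ± 0.034 to 0.921 ± 0.056 CPM in TCCSUP. The list's median difference was 0.42 in HT1376 and 0.35 in TCCSUP, against -0.06 and -0.02 over all genes. It was 0.29 in SW780 and 0.25 in 639V, against 0.07 and 0.02, and 0.16 in KU1919, 0.11 in HT1197 and 0.10 in T24 and VMCUB.

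**Figure D4:**
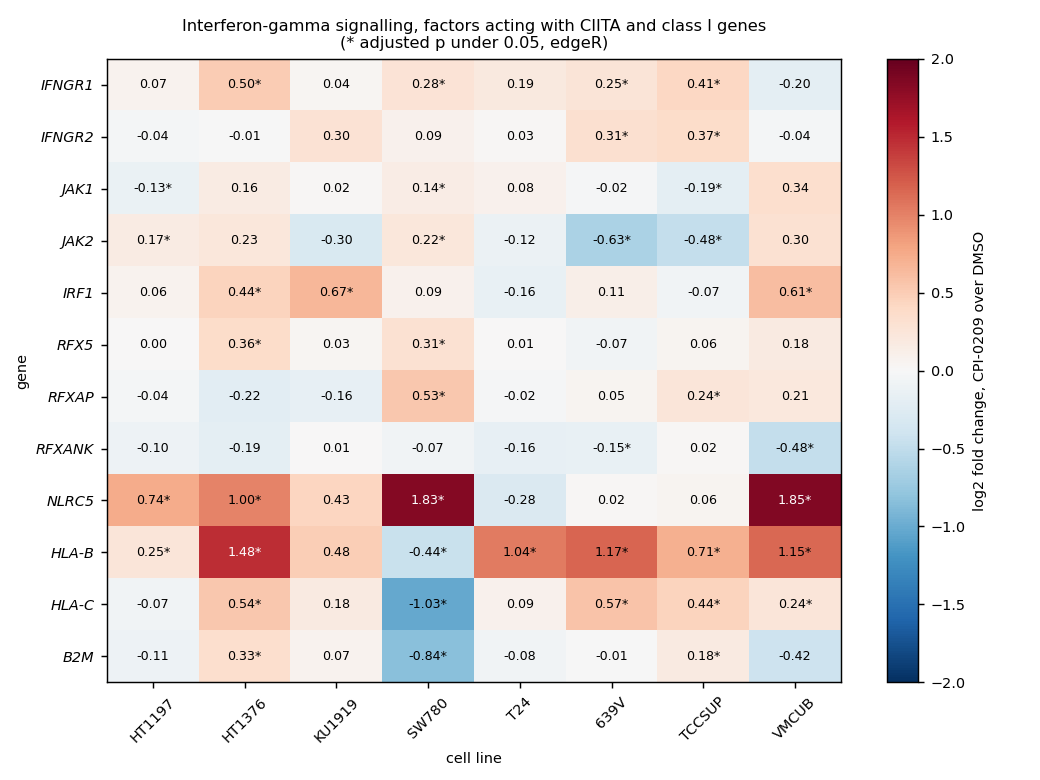
Log2 fold change with CPI-0209 in each line (columns) of interferon-gamma receptor and signalling genes, of RFX factors, and of NLRC5 with 3 class I genes (rows), with an asterisk where the adjusted p was under 0.05. The colour scale ends at 2; HLA-B is positive in every line but SW780, and NLRC5 reaches 1.83 in SW780 and 1.85 in VMCUB.

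MHC class I presents peptides to CD8 T cells. Of 15 class I presentation genes, 11 rose in HT1376 (23.7% of all genes) and 9 in 639V (22.1%). In VMCUB 7 rose (16.4%) and in KU1919 5 (9.30%), with 0 lower in any of these lines. In TCCSUP 7 rose (25.7%) and 3 fell (23.0%). In SW780 3 rose (30.8%) and 10 fell (30.3%), or 4 and 6 with library totals. In HT1197 2 of 14 tested rose (11.8%) and 1 fell (7.80%), and in T24 2 of 15 rose (9.37%) and 0 fell. NLRC5, the class I counterpart of CIITA, rose in HT1376 (1.00 ± 0.07, edgeR adjusted p = 2.30e-06), SW780 (1.83 ± 0.10, adjusted p = 3.34e-11), VMCUB (1.85 ± 0.15, adjusted p = 0.000345) and HT1197 (0.74 ± 0.19, adjusted p = 0.0124), and in TCCSUP, where CIITA rose, it was 88.5 ± 0.81 CPM in DMSO and 91.2 ± 4.04 CPM in CPI-0209. In SW780, HLA-C (-1.03 ± 0.05) and the light chain B2M (-0.84 ± 0.05) fell while HLA-DMB and HLA-DPA1 rose. Costimulatory genes were counted too: CD83, a dendritic cell surface protein, rose in HT1376 from 0.338 ± 0.097 to 5.79 ± 0.52 CPM (4.14 ± 0.19 on the log2 scale, edgeR adjusted p = 2.35e-07). Of those tested, 3 of 4 rose in HT1376 (23.7% of all genes) and 5 of 5 in SW780 (30.8%). In 639V 3 of 4 rose (22.1%) and in T24 2 of 4 (9.37%). In HT1197 1 of 4 rose (11.8%), in KU1919 1 of 5 (9.30%) and in VMCUB 1 of 5 (16.4%). In TCCSUP 1 of 3 rose (25.7%) and 1 fell (23.0%).

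The target of the inhibitor itself changed little in RNA. EZH2 rose by 0.15 ± 0.05 in HT1376 (edgeR adjusted p = 0.0377, lost with RLE size factors at 0.0565) and 0.16 ± 0.05 in TCCSUP (adjusted p = 0.0173) and was not called in the other 6 lines, and CPI-0209 acts on the protein, so these values do not check the treatment. SUZ12, another PRC2 core gene, fell in HT1376 (-0.31 ± 0.07), 639V (-0.31 ± 0.05), and TCCSUP (-0.33 ± 0.06), and with TMM scaling but not with library totals in HT1197 (-0.12 ± 0.04) and SW780 (-0.15 ± 0.05). Of 7 acetylases and silencers tied to CIITA, PRDM1, a repressor of the CIITA gene in plasma cells, rose in HT1376 (2.06 ± 0.12, edgeR adjusted p = 9.26e-07), 639V, KU1919, SW780, TCCSUP and VMCUB, and HDAC1 fell in HT1376, 639V, SW780 and TCCSUP.

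Genes of professional antigen-presenting cells were looked up because such cells carry class II. In HT1376 the summed level of 5 pan-leukocyte genes went from 9.86 to 10.7 CPM in DMSO up to 28.6 to 29.4 CPM in CPI-0209, led by LCP1 and CORO1A, and that of 10 macrophage and dendritic cell genes from 12.7 to 13.0 CPM up to 18.8 to 22.2 CPM. The B cell sum went from 1.43 to 1.56 CPM up to 2.11 to 2.19 CPM, and the T and NK cell sum from 0.258 to 0.312 CPM up to 0.691 to 0.931 CPM. Of the pan-leukocyte genes 3 rose there and 1 fell, of the macrophage and dendritic cell genes 3 rose and 1 fell, and of the T and NK cell genes 1 rose. FCGR3A, an Fc receptor, went from 2.35 ± 0.26 to 8.78 ± 1.14 CPM, CSF1R from 3.09 ± 0.20 to 6.41 ± 0.25 CPM and ITGAX from 0.351 ± 0.085 to 1.64 ± 0.33 CPM, whereas CD14 fell from 6.07 ± 0.12 to 2.40 ± 0.15 CPM. The defining markers MS4A1, CD2, CD1C and LYZ were at 0 in both groups, and PTPRC, the CD45 gene, was at 0.412 ± 0.18 and 0.516 ± 0.12 CPM. In TCCSUP the pan-leukocyte sum went from 36.6 to 38.8 CPM up to 41.8 to 43.3 CPM. Of 4 of these genes tested 3 rose (25.7% of all genes) and 1 fell (23.0%), PTPRC (28.4 ± 0.60 to 22.0 ± 0.61 CPM). The T and NK cell sum there went from 1.36 to 1.86 CPM up to 1.94 to 2.45 CPM and the B cell sum from 0.207 to 0.479 CPM up to 0.597 to 0.983 CPM. The macrophage and dendritic cell sum went from 51.1 to 70.3 CPM down to 36.9 to 39.3 CPM, with 2 genes higher and 1 lower, and MS4A1, CD2 and CD1C were at 0. In DMSO the pan-leukocyte sum of every other line was above that of treated HT1376 and treated TCCSUP. It was 376 to 394 CPM in HT1197, 444 to 459 in KU1919 and 394 to 516 in VMCUB. In SW780 it was 289 to 295 CPM, in T24 229 to 251 and in 639V 123 to 132. LCP1 had the highest level of the list in each of these. The part of such cells in the class II values was not tested. The 13 urothelial genes, led by keratins, summed in HT1376 to 7339 to 8815 CPM in DMSO and 8528 to 9757 CPM in CPI-0209, which overlapped. In TCCSUP they went from 2536 to 2866 CPM down to 2292 to 2367 CPM without overlap. KRT18 alone had means of 2166 and 1784 CPM there. In bulk RNA, more cells with a gene and more RNA per cell cannot be told apart.

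The genes whose level over the 16 groups was most like that of CIITA were ORM1 (Pearson r = 0.946), C1QL2 (0.943), CT47B1 (0.942), C2CD4B (0.936) and ITLN2 (0.935). Each had its highest level in treated HT1376, and over the 14 groups without HT1376 the correlations were 0.61 to 0.76. Their levels were low: the mean log2 level in HT1376 was -3.08 to -2.55 in DMSO and -0.44 to 0.80 in CPI-0209. Most like CD74 were ZNF169 (0.861), CCDC191 (0.857), PFKFB3 (0.854), HTRA1 (0.836) and SLC15A4 (0.820), which without HT1376 correlated at 0.87 to 0.96. They did not share the 43.2-fold rise of CD74 in HT1376. The largest of their rises there was in PFKFB3 (mean log2 level 6.48 to 6.84) and the smallest in HTRA1 (7.21 to 7.23). CD74 was at 0.187 and 0.200 CPM in HT1197 and at 4.48 CPM or more in every other group, and the weight of HT1197 in these correlations was not tested. These are descriptions over groups that share lines, with no p.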

How the data were processed

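Total RNA of 8 bladder cancer lines was extracted with Trizol and sequenced as paired-end reads, per the labels' protocols, which name both a TruSeq kit and a strand-specific protocol. VMCUB appears as VMCUB1 in its growth label. The values are whole-number counts per Ensembl gene, deposited by the authors and made with STAR 2.7.3a, RSEM 1.3.1 and hg38, per the submitters' processing notes. The annotation, the use of strand and how RSEM's estimates became whole numbers are not given in the sources used here.

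From these counts, each line's 6 libraries were compared with edgeR 4.0.16 in R 4.3.3 (TMM scaling, filterByExpr, robust quasi-likelihood test, Benjamini-Hochberg threshold 0.05, 4 residual degrees of freedom). The shared response was tested on 16 sums with line and treatment as terms, and differences between lines in a fit to the 48 libraries together. Each SE is the log2 fold change, unsigned, over F's square root. Ratios with 1 to 3 counts carry an exact binomial interval, and 0 counts a floor of 3. Coordinates and gene lengths are from GENCODE 29. In counts simulated with edgeR's own dispersions, the tests recovered part of the changes planted in genes that passed the count filter. Genes under the filter were not covered by that check. Depth per library was 26481418 to 50916911 counts, and intervals cover counting error only.

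The members and the 9 lists were chosen with earlier results of these data known. All members were named in every line, and of each list at most 4 genes a line with the smallest adjusted p, plus IFNG, IFNGR1, IFNGR2, IRF1, JAK2, RFX5, NLRC5 and the 4 PRC2 core genes. Some listed genes are not reported here. For likeness, the 5 genes best correlated with CIITA and with CD74 in mean log2(CPM + 0.1) were named. Alternatives were RLE size factors, library totals, DESeq2 1.42.0, no filter, a replicate block, 1 fit of all 48 libraries, leaving out libraries or lines, and another motif spacing.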

Additional observations from a re-analysis of the deposited data

Results flagged for a closer look

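The response of each of the 10 genes to CPI-0209 differed between the 8 lines by edgeR's F test of the line by treatment terms, where 58.7% of all genes did. The adjusted p was 1.46e-16 for CIITA, the class II coactivator, and 6.31e-28 for CD74, the invariant chain. For the DR chains it was 2.07e-06 (HLA-DRA) and 2.66e-15 (HLA-DRB1), and for the DP chains 1.72e-19 (HLA-DPA1) and 1.44e-15 (HLA-DPB1). For the DQ chains it was 3.56e-09 (HLA-DQA1) and 4.15e-20 (HLA-DQB1), and for the DM chains 6.93e-15 (HLA-DMA) and 4.88e-08 (HLA-DMB). CIITA was higher in all 3 treated libraries than in all 3 DMSO libraries in HT1376, TCCSUP, SW780 and VMCUB.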

How the results depend on the processing

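All 10 members remained called in HT1376 under each alternative run, and 0 in HT1197. Elsewhere the cause of a changed count was not tested. The count went from 5 to 8 in SW780 with library totals, from 2 to 1 in T24 without the filter and to 5 in the fit of all 48 libraries, and in the shared fit from 1 to 6 with DESeq2 and 2 without the filter. Leaving out 1 library gave 1 to 3 in KU1919, 1 to 2 in T24 and 1 to 3 in VMCUB. Leaving out 1 line from the shared fit gave 0 to 1. Against the other lines, leaving out 1 replicate number gave 1 to 3 in HT1197, 8 to 9 in HT1376, 6 to 7 in KU1919, 3 to 5 in SW780, 4 to 5 in T24, 3 to 4 in 639V and in TCCSUP, and 2 to 5 in VMCUB. Without replicate 2 the T24 DMSO group held 0 counts of HLA-DRB1, so the HLA-DRB1 contrasts in that run cannot be read. The motif count stayed at 1 with a spacing of 10 to 40 bases.

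Replicate numbers did not pair the libraries: in no line did all 3 pairs deviate together above a correlation of 0.1 (lowest per line -0.40 to -0.00), and 0 or 1 of 6 libraries correlated best with its own number. With the replicate block the T24 count was 1 (HLA-DPA1, adjusted p = 0.165), HLA-DPB1 in KU1919 had adjusted p = 0.0687 and CIITA in 639V 0.0403.

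Values that changed sign were all from uncalled genes. HLA-DMA in 639V was 0.027 with library totals. Leaving out 1 library gave CIITA in HT1197 -0.20 to 0.26, HLA-DQA1 -0.51 to 0.15 and HLA-DMA -0.34 to 0.15 there, HLA-DQA1 -0.25 to 0.54 in T24 and -0.14 to 0.76 in 639V, HLA-DMA -0.12 to 0.052 in 639V, and in VMCUB HLA-DQA1 -0.61 to 0.079 and HLA-DMA -0.035 to 0.18. Against the other lines, HLA-DQA1 was -0.84 to 0.16 in KU1919 and -1.10 to 0.0095 in 639V, HLA-DMB -0.85 to 0.17 in T24 and HLA-DPA1 -1.07 to 0.087 in VMCUB. Depth limited HLA-DRA most, with 5 counts or fewer in DMSO in 6 of 8 lines.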
